A study of Homo sapiens with 6 samples.

Results

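The genes described are 56 Wnt signaling components of the 32192 genes in the count table of A549 cells, a widely used line derived from a human lung adenocarcinoma. They were chosen by symbol to cover the pathway: ligands and the proteins that acylate and export them, Frizzled and other receptors, secreted antagonists, Dishevelled and its regulators, the destruction complex, TCF/LEF factors, nuclear co-regulators and feedback targets. The choice rule uses no measured value, although earlier results of these data were known when the list was made. RNA was sequenced from 3 libraries of cells transfected with a plasmid carrying the APEX1 coding sequence with a FLAG tag (APEX1-OE) and 3 libraries of cells that received the control plasmid (Ctrl). The vector was pIRES-hrGFP-1a, whose green fluorescent protein is made from the same transcript as the insert, and transfection was transient. The labels number the replicates 1 to 3 in each group and do not say whether they came from separate cultures, so the p-values measure the spread between these libraries, which may be technical. The comparison asks whether extra APEX1, an endonuclease of base excision repair that also binds RNA, was accompanied by a different mRNA level of the pathway's components.

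In canonical Wnt signaling a lipid-modified ligand binds a Frizzled receptor and the co-receptor LRP5 or LRP6 at the cell surface. Without ligand, a complex of AXIN, APC, GSK3 and casein kinase 1 marks beta-catenin for ubiquitination by beta-TrCP and for degradation. With ligand, Dishevelled draws AXIN to the membrane, and beta-catenin accumulates and acts with TCF/LEF factors in the nucleus, where TLE and CTBP proteins repress the same targets. AXIN2, NKD1, RNF43, ZNRF3, LEF1 and TCF7 are transcribed in response to the pathway in many tissues and mostly act back on it. In the lung the pathway is known for its part in airway branching and in the renewal of alveolar type II cells, the cells that A549 is often used to model.

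The values are gene-level: a transcript's splice forms are summed. For 7 members the study designed primers across exon junctions. Each of these members has a primer for the form that the study calls "model" and a primer for the altered form, called changed here. Within a member both primers share 10 bases at the 3′ end and differ in the first 10. They are shown for 4 members because they spell out which forms a gene-level value cannot tell apart, with the first 10 bases in capitals. Positions are those of exact matches to GENCODE 44 transcripts on GRCh38, and 13 of the 14 junction primers matched. The changed-form primer of TCF7L2 did not.
AXIN1 model: CCGAGACAGAgacaagatcg
AXIN1 changed: CCAAGCAGAGgacaagatcg
FBXW11 model: CGAGCTCATGaacacttcag
FBXW11 changed: TATTTTCCAGaacacttcag
INVS model: GATAATTTCCcttctgggct
INVS changed: ACTTCAGCCCcttctgggct
WNT10B model: AAGGGCAGTGggaagctccc
WNT10B changed: TGGATTCCAGggaagctccc

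The AXIN1 model primer joins chr16:291190-291199, in coding sequence on the minus strand, to chr16:289598-289607. The changed primer joins chr16:293488-293497 to the same coding bases and so passes over a coding exon of 108 bases, chr16:291190-291297. For FBXW11, on the minus strand of chromosome 5, the capitals lie in coding sequence at chr5:172006458-172006467 for the model form and in an untranslated exon at chr5:171996890-171996899 for the changed form. For INVS, on the plus strand of chromosome 9, both primers are antisense, and their capitals lie at chr9:100226062-100226071, in coding sequence, and at chr9:100214925-100214934, in an exon annotated in a noncoding transcript. The WNT10B model primer joins chr12:48968203-48968212 to chr12:48967997-48968006, both coding on the minus strand, whereas the changed primer matches 20 contiguous coding bases, chr12:48967997-48968016. The reads that cross these junctions were not analysed here.

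All 56 members had a row in both deposited tables. Library totals lay between 28131955 and 41009197 counts, and 55 members passed the filter on low counts. The exception was LEF1, one of the TCF/LEF factors, with 0 counts in 5 libraries and 2 in Ctrl replicate 3. A count of 0 allows up to 3 counts, or 0.0732 to 0.107 CPM (counts scaled to library size) in these libraries. APEX1 itself stood at 618, 680.3 and 768 FPKM in APEX1-OE and at 129, 126 and 124 in Ctrl. The epithelial keratins KRT8 and KRT18 were abundant in all 6 libraries, at 2558 to 3562 and 2011 to 2838 FPKM, and EPCAM was low at 0.18 to 0.52. Of 12 markers of blood, endothelial and stromal cells, 5 passed the filter, their summed level was 22.4 to 27.2 FPKM in APEX1-OE and 24.6 to 28.2 in Ctrl, nearly all of it ACTA2. The blood marker PTPRC had 1 count, in Ctrl replicate 3, and no FPKM row.

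The libraries did not separate by plasmid. The first principal component of log2 CPM held 72.6% of the variance and put APEX1-OE replicate 1 with Ctrl replicates 1 and 2 (set A), apart from Ctrl replicate 3 and APEX1-OE replicates 2 and 3 (set B). These sets were defined from the data and are not the study's groups. Genes whose exons hold under 45% G and C had median deviations from the gene mean of -0.50, -0.28 and -0.26 log2 in the set A libraries and 0.29, 0.47 and 0.32 in the set B libraries. Genes with over 55% G and C went the other way, from 0.19 to 0.42 in set A and from -0.32 to -0.15 in set B. Every set B library also had a larger total, 35234411 to 41009197 counts against 28131955 to 34398771, and more genes with a count, 25620 to 26197 against 23754 to 24369. The mitochondrial share of counts overlapped, at 3.16% to 3.51% in set A and 3.21% to 3.79% in set B. The part of depth or base composition in the split was not tested.

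The Wnt components followed the same division, so each result below is given with it. The mean of set B minus that of set A ran from -1.22 log2 CPM for ROR2, a receptor counted 5 to 15 times per library, to 1.34 for LRP6. The libraries of the sets did not overlap for 44 of 55 members (80.0%, against 66.4% of all tested genes), with set B above set A for 21 and below for 23. All 15 members with under 45% GC were higher in set B, by a median of 0.82 (0.72 over all such genes, of which 92.1% were higher). Of the 25 members with over 55% GC, 2 were higher in set B, with a median of -0.47 (-0.53 over all such genes, of which 6.84% were higher). Among the 15 in between, 11 were higher in set B, by a median of 0.15. Across the 55 members the difference correlated with GC content with Pearson's r of -0.87 and Spearman's rho of -0.89 (-0.78 and -0.80 across 16746 genes). These are correlations across genes measured in the same 6 libraries, and genes are not independent replicates.

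**Figure D1:**
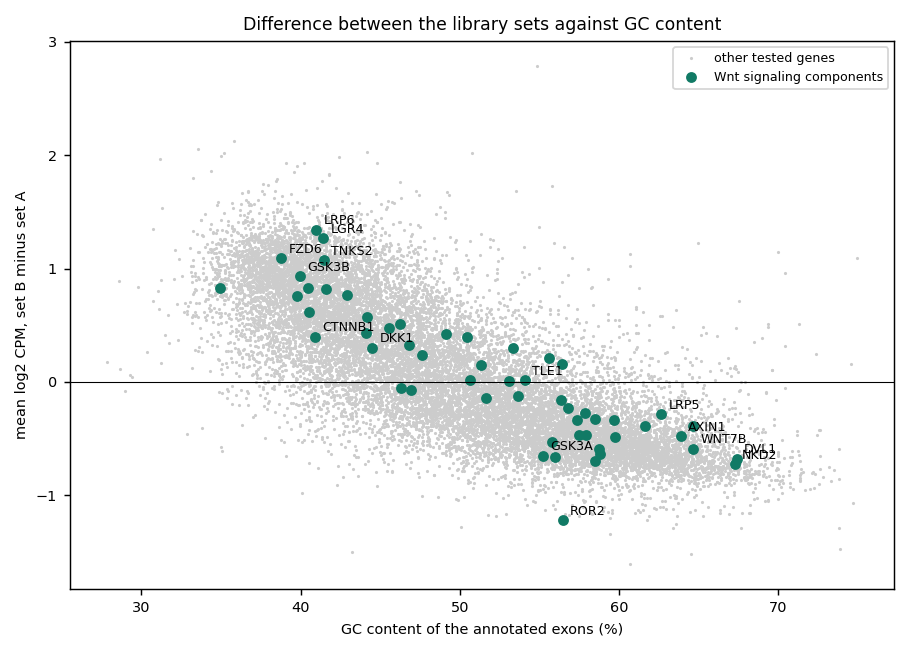
Mean log2 CPM of set B minus set A (vertical axis) against the GC content of the annotated exons in percent (horizontal axis), with the 55 tested Wnt components in green and other tested genes with an annotation in grey. Genes with extreme differences or extreme GC content are not drawn. The components run down with GC content along the grey cloud, from LRP6 and LGR4 at the top left to DVL1 and NKD2 at the lower right, with ROR2 the lowest component at -1.22.

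To show such differences in base composition, 60 bases are printed from the middle of the longest coding exon of the 2 members with the highest and the 2 with the lowest difference between the sets, among members with a mean of at least 1 FPKM, with G and C in capitals. The stretches are given 5′ to 3′ on the gene's strand, from GRCh38.
LRP6: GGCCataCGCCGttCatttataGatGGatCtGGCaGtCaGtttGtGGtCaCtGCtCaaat
LGR4: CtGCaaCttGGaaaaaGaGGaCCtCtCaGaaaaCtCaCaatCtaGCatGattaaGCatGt
DVL1: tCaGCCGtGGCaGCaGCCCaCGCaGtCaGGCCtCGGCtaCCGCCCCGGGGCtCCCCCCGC
NKD2: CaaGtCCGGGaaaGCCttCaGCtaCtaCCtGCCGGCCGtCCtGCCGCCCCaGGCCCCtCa

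LRP6 (chr12:12181211-12181270, minus strand) has 28 G or C in these 60 bases and LGR4 (chr11:27368477-27368536, minus strand) has 24. DVL1 (chr1:1336300-1336359, minus strand) has 47 and NKD2 (chr5:1038058-1038117, plus strand) has 41. A stretch need not match its gene, and over all annotated exons the GC content was 40.97% for LRP6, 41.4% for LGR4, 67.4% for DVL1 and 67.3% for NKD2. LRP6 was higher in set B by 1.34 log2 CPM and LGR4 by 1.27, whereas DVL1 was lower in set B by a difference of -0.68 and NKD2 by -0.73.

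Levels are given as FPKM, the authors' values per kilobase and per mapped fragment total, in the order of replicates 1, 2 and 3. The mean over the 6 libraries was at least 10 FPKM for 17 members, from 1 to under 10 for 29 and under 1 for 10, with a median of 3.87. Among the ligands, the Frizzled receptors, the co-receptors and the antagonists a single member supplied the larger part of the summed level in every library.

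**Figure D2:**
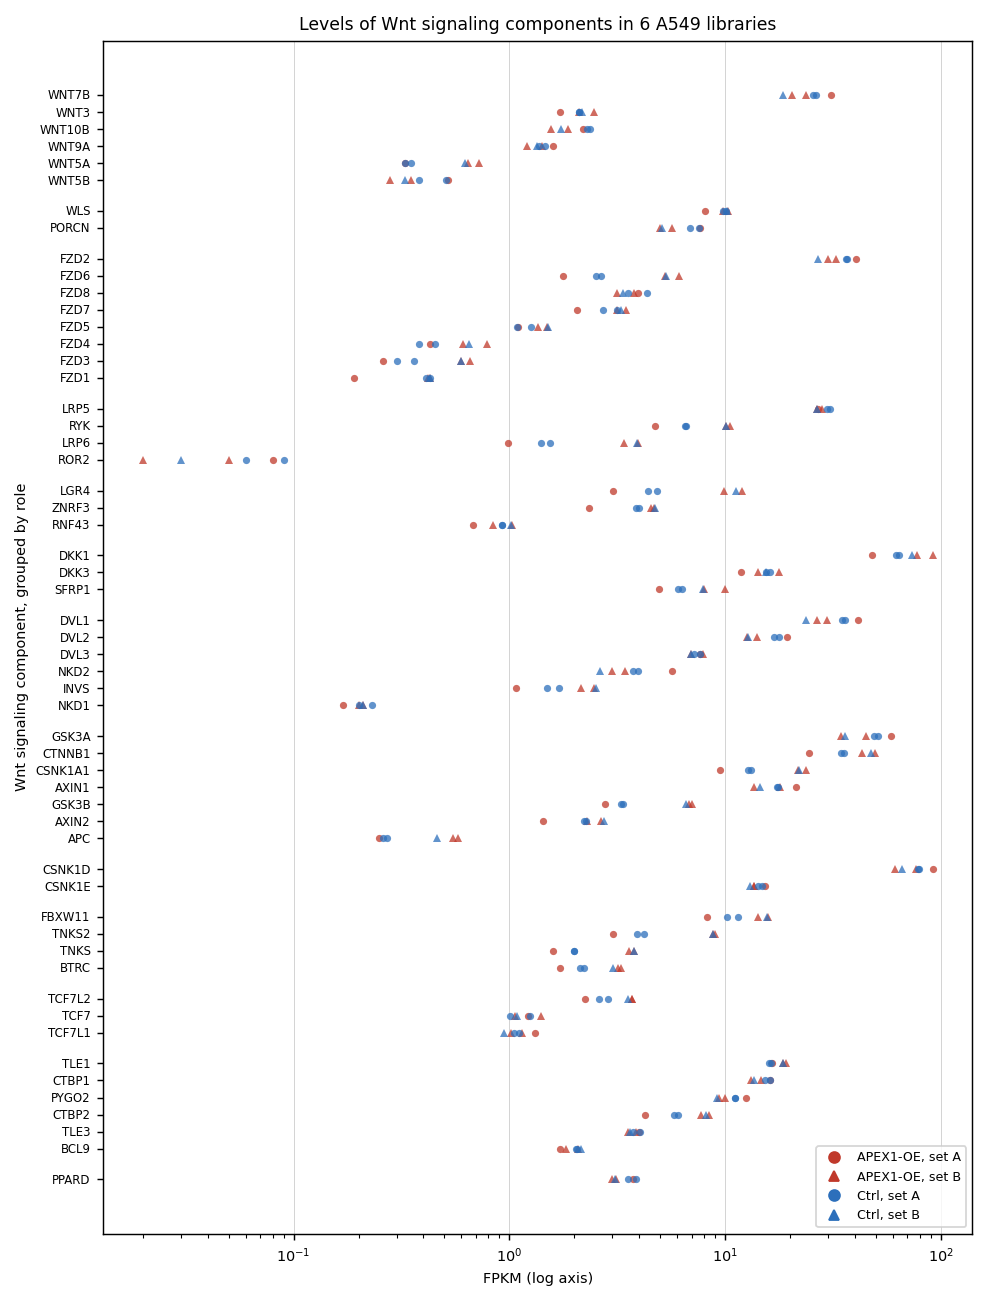
FPKM (horizontal log axis) of each Wnt component in each of the 6 libraries, grouped by role and ordered by mean level within a role, with red for APEX1-OE, blue for Ctrl, circles for set A and triangles for set B. LEF1 and libraries listed at 0 are not drawn. In many rows the circles and the triangles stand apart while red and blue are mixed, as for LRP6, where the circles lie from 0.99 to 1.54 and the triangles from 3.40 to 3.95.

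Among the 6 ligands WNT7B, a ligand of epithelia that signals to neighbouring mesenchyme in the lung, made up 74.8% to 82.9% of the summed FPKM in every library. WNT7B (ENSG00000188064.9, chromosome 22, 45920366 to 45977162, minus strand) stood at 30.9, 23.8 and 20.4 in APEX1-OE and at 26.5, 25.5 and 18.5 in Ctrl. Both groups ran from high in set A to low in set B, and they overlapped. WNT3 and WNT9A, canonical ligands, lay at 1.71 to 2.47 and 1.21 to 1.59. WNT10B, for which the study has splicing primers, was at 2.20, 1.87 and 1.56 in APEX1-OE and 2.36, 2.30 and 1.74 in Ctrl. WNT5A and WNT5B, which act mainly through beta-catenin-independent routes, stayed under 1 FPKM (0.33 to 0.72 and 0.28 to 0.52). The summed ligand level was 31.4 ± 5.51 (SD, n = 3) in APEX1-OE and 30.0 ± 4.603 in Ctrl, a difference smaller than either SD. PORCN, which acylates the ligands, was at 4.99 to 7.64, and WLS, which carries them to the surface, at 8.08 to 10.3.

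FZD2 supplied 64.2% to 80.6% of the summed level of the 8 Frizzled receptors. FZD2 (ENSG00000180340.6, chromosome 17, 44557484 to 44561262, plus strand) was at 40.6, 32.7 and 30.0 in APEX1-OE and at 36.8, 36.4 and 27.1 in Ctrl, and the groups overlapped. FZD6, FZD8 and FZD7 followed at 1.78 to 6.10, 3.16 to 4.35 and 2.06 to 3.48, and their ranges overlap. FZD8 was above FZD7 in each library, at the least by 3.16 against 3.15, whereas FZD6 was below both in set A and above both in set B. FZD5 lay at 1.08 to 1.51, and FZD4, FZD3 and FZD1 stayed under 1. FZD1 was listed at 0.19, 0.42 and 0.43 in APEX1-OE and at 0.43, 0.41 and 0.43 in Ctrl. APEX1-OE replicate 1 was the low library there, and the other 5 were alike.

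The co-receptor LRP5 (chromosome 11, 68312591 to 68449275, plus strand) was the most abundant of the co-receptors and alternative receptors in every library, at 26.9, 28.3 and 26.7 in APEX1-OE and 29.9, 30.8 and 26.7 in Ctrl. Its paralog LRP6 was at 0.99, 3.40 and 3.95 in APEX1-OE and at 1.54, 1.40 and 3.89 in Ctrl. The set A libraries were all low for LRP6 and the set B libraries all high, in either group. RYK, a Wnt-binding receptor without active kinase, was at 4.74 to 10.6, and ROR2, a WNT5A receptor, at 0.02 to 0.09.

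LGR4, which binds R-spondins and thereby protects Frizzled receptors, stood at 3.02, 9.87 and 11.98 in APEX1-OE and at 4.41, 4.85 and 11.3 in Ctrl. It too was high in set B and low in set A. The E3 ligases that LGR4 and R-spondin neutralise were lower. ZNRF3 was at 2.35, 4.56 and 4.71 in APEX1-OE and 3.88, 4.01 and 4.73 in Ctrl. RNF43 was at 0.68, 0.84 and 1.03 in APEX1-OE and 0.92, 0.92 and 1.02 in Ctrl. For both ligases APEX1-OE replicate 1 was the lowest of the 6 libraries.

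DKK1, a secreted antagonist that binds LRP5 and LRP6, was the second most abundant component by mean FPKM after CSNK1D, and made up 74.1% to 77.9% of the summed antagonists. DKK1 (ENSG00000107984.9, chromosome 10, 52314281 to 52318042, plus strand) stood at 47.9, 77.9 and 92.0 in APEX1-OE and 64.4, 62.0 and 73.7 in Ctrl. The APEX1-OE libraries held both the lowest and the highest value, and the means were 72.6 ± 22.6 (SD, n = 3) and 66.7 ± 6.19. DKK3, a related secreted protein, was at 11.8 to 17.8, and SFRP1, which sequesters ligands, at 4.94 to 9.99.

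Of the 3 Dishevelled proteins, which relay the signal from Frizzled, DVL1 was the most abundant in each library. DVL1 was at 41.4, 29.6 and 26.6 in APEX1-OE and 36.1, 34.7 and 23.8 in Ctrl, DVL2 at 12.6 to 19.3 and DVL3 at 6.94 to 7.89. NKD2, an inhibitor that binds Dishevelled, was at 5.68, 3.44 and 2.98 in APEX1-OE and at 3.74, 3.95 and 2.64 in Ctrl. Each of its APEX1-OE values lay above the Ctrl mean or value of its own library set, while the groups overlapped. NKD1, its paralog and a feedback target, was at 0.17, 0.20 and 0.21 against 0.23, 0.20 and 0.21. INVS (inversin), which turns Dishevelled toward the planar polarity route, was at 1.07, 2.14 and 2.48 against 1.70, 1.50 and 2.52.

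In the destruction complex GSK3A, a kinase, and CTNNB1, beta-catenin itself, were the most abundant. GSK3A was at 58.6, 44.8 and 34.6 in APEX1-OE and 49.3, 51.2 and 36.2 in Ctrl. CTNNB1 (chromosome 3, 41194741 to 41260096, plus strand) was at 24.5, 43.4 and 49.5 in APEX1-OE and 35.8, 34.5 and 47.6 in Ctrl. The pair ran in opposite directions across the sets, GSK3A high in set A and CTNNB1 high in set B. The scaffold AXIN1 was at 21.2, 18.0 and 13.6 in APEX1-OE and 17.4, 17.7 and 14.5 in Ctrl, and AXIN2, its feedback-induced paralog, at 1.44, 2.28 and 2.66 in APEX1-OE and 2.27, 2.21 and 2.76 in Ctrl. GSK3B was at 2.79, 6.84 and 7.03 against 3.28, 3.36 and 6.63. CSNK1A1, the kinase that primes beta-catenin, was at 9.48 to 23.8. APC was the lowest of the complex, at 0.25, 0.55 and 0.58 in APEX1-OE and 0.26, 0.27 and 0.46 in Ctrl.

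The casein kinases CSNK1D and CSNK1E, which phosphorylate Dishevelled, were at 61.1 to 92.0 and 13.1 to 15.4. Of the beta-TrCP paralogs, the substrate receptors of the ligase, FBXW11 was at 8.25, 14.2 and 15.8 in APEX1-OE and 11.5, 10.2 and 15.7 in Ctrl, and BTRC at 1.71 to 3.28. The tankyrases TNKS2 and TNKS, which mark AXIN for degradation, were at 3.04 to 8.97 and 1.60 to 3.80, with every set B library above every set A library. Among the DNA-binding factors TCF7L2 was the highest, at 2.24, 3.69 and 3.71 in APEX1-OE and 2.61, 2.86 and 3.55 in Ctrl. TCF7 was at 1.22, 1.06 and 1.41 against 1.25, 1.01 and 1.09, and TCF7L1 at 0.94 to 1.31. The co-repressors TLE1, CTBP1 and CTBP2 were at 16.1 to 19.3, 13.2 to 16.2 and 4.26 to 8.45, TLE3 at 3.54 to 4.04, and the beta-catenin cofactors PYGO2 and BCL9 at 9.14 to 12.5 and 1.72 to 2.14. CTBP2, which has splicing primers, was at 4.26, 7.72 and 8.45 in APEX1-OE and 6.08, 5.80 and 8.17 in Ctrl. The summed nuclear co-regulators varied little, 55.9 ± 1.24 (SD, n = 3) in APEX1-OE and 55.04 ± 0.138 in Ctrl. The sum spans members that differed between the sets in opposite directions, with 2 of the 6 higher in set B. Set B minus set A was 0.42 log2 CPM for CTBP2, -0.39 for CTBP1 and -0.47 for PYGO2. PPARD, a nuclear receptor and reported target of the pathway, was at 3.74, 3.14 and 2.98 in APEX1-OE and 3.88, 3.56 and 3.09 in Ctrl.

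No Wnt component passed the test of APEX1-OE against Ctrl. With edgeR's quasi-likelihood test over 16971 genes and Benjamini-Hochberg adjustment, 0 of 55 members were called at an adjusted p under 0.05, against 0.00589% of all genes, which is APEX1 alone (log2 fold change 2.42, adjusted p = 0.00809). At an unadjusted p under 0.05 the count was also 0 members, against 0.695% of all genes, and DESeq2 and limma-voom gave 0 members as well at both thresholds. The median log2 fold change was 0.02 over the members and 0.03 over all genes, and 58.2% of the members and 57.5% of all genes had a positive value. The values ran from -0.33 to 0.45. In bulk RNA, fewer cells with a transcript and less of the transcript per cell cannot be told apart.

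The 3 largest positive values belonged to APC, 0.45 (SE 0.330), WNT5A, 0.34 (SE 0.324), and GSK3B, 0.29 (SE 0.360). The 3 largest negative values belonged to FZD1, -0.33 (SE 0.293), ROR2, -0.26 (SE 0.639), and AXIN2, -0.22 (SE 0.239). All 6 had an adjusted p of 1.00 in edgeR's quasi-likelihood test, and APC, with the lowest unadjusted p of all members, 0.206 in that test, had every set B library above every set A library. Its log2 fold change was 0.67 with APEX1-OE replicate 1 left out, 0.71 with Ctrl replicate 3 left out, and 0.30 to 0.35 with 1 of the other 4 libraries left out. Without APEX1-OE replicate 1 it had an unadjusted p under 0.05, 1 of 55 members against 7.61% of all genes, and an adjusted p of 0.507 in edgeR. With the library set as a term APC was at 0.19, WNT5A at 0.09 and FZD1 at -0.46, while GSK3B turned to -0.04 and ROR2 to 0.25.

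The precision of these 3 libraries a group was limited. The median SE over the members was 0.256 log2. The 95% interval of the fold change lay within -1 and 1 for 44 of 55 members, and within -0.5 and 0.5 for 2. The intervals were 0.772 to 2.95 log2 wide, and a difference smaller than their reach was not detectable at this number of libraries. In CPM the groups did not overlap for 3 members (3.39% of all genes were in that state), and in each APEX1-OE was lower (2.01% of all genes). For WLS the CPM was 34.9, 35.6 and 36.4 in APEX1-OE and 39.99, 39.6 and 36.9 in Ctrl. BCL9 was at 14.9, 13.5 and 14.8 against 16.3, 16.5 and 15.5, and FZD1 at 1.78, 3.44 and 3.42 against 3.76, 3.70 and 3.49. The gap between the nearest libraries was small for WLS and FZD1, and in FPKM, which is scaled differently between libraries, no member had separate groups. The share of all genes with separate groups in FPKM was not counted.

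**Figure D3:**
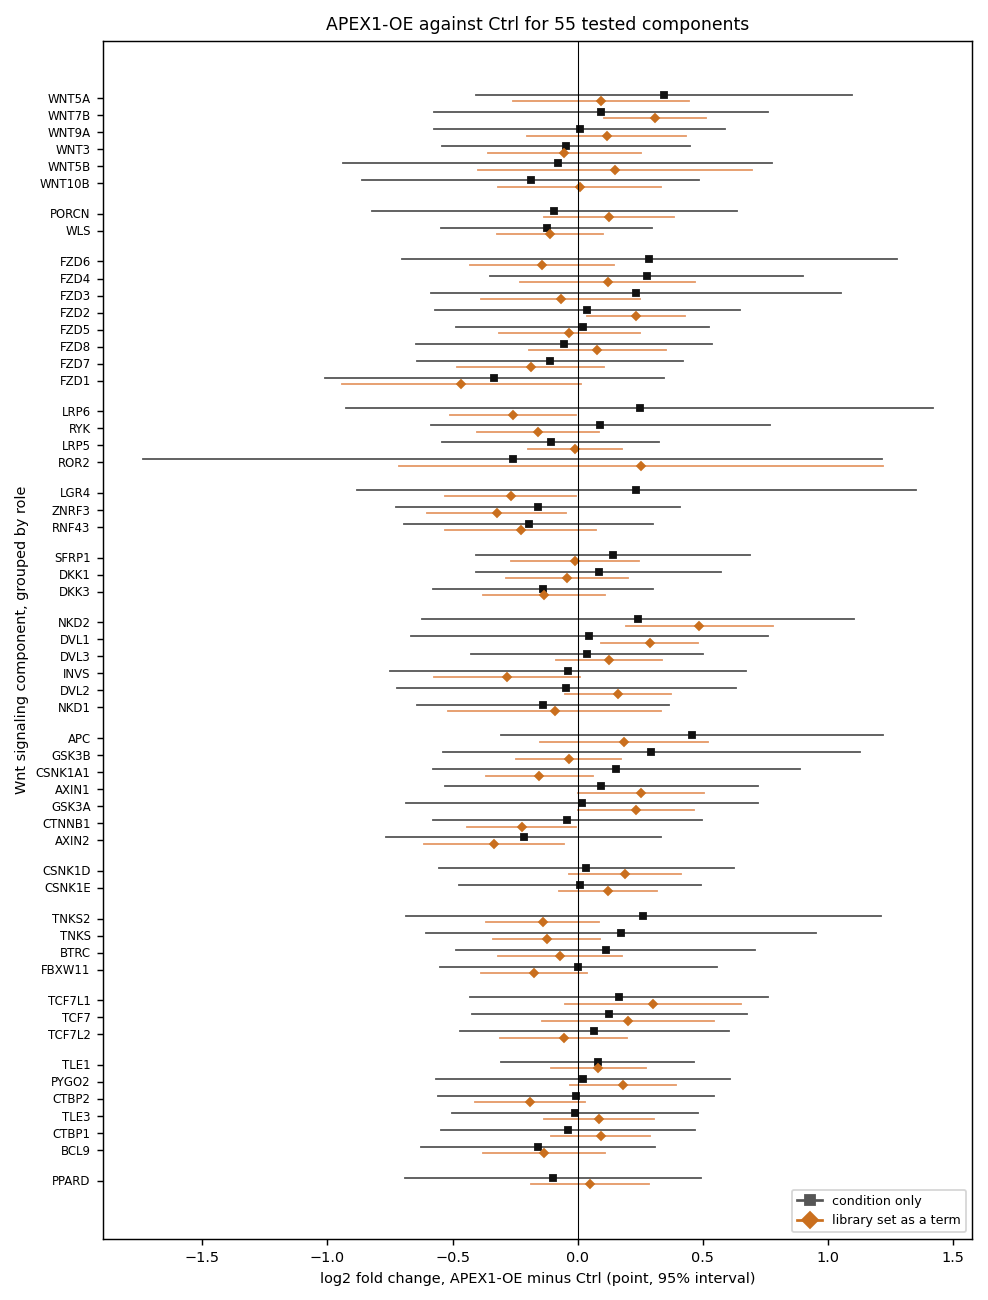
Log2 fold change of APEX1-OE minus Ctrl (horizontal axis) with its 95% interval for the 55 tested Wnt components, grouped by role, from the fit on the condition alone (black squares) and from the fit with the library set as a further term (orange diamonds). Every black interval spans 0, and the orange intervals are narrower, with 54 of 55 inside -1 and 1.

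A fit with the library set as a term compares APEX1-OE with Ctrl inside the sets. It was chosen with the split known, and set A then rests on 1 APEX1-OE library and set B on 1 Ctrl library. The median SE fell to 0.117, 54 intervals lay within -1 and 1 and 39 within -0.5 and 0.5. In this fit too edgeR's quasi-likelihood test called 0 members, against 0.0236% of all genes, with 0.350 as the smallest adjusted p of a member. At an unadjusted p under 0.05 there were 11 of 55 members, against 11.6% of all genes.

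Of these 11 members 6 were higher and 5 lower in APEX1-OE, against 8.61% and 3.02% of all genes, and none passed the adjustment. The higher ones were NKD2 at 0.48 (SE 0.138), the ligand WNT7B at 0.31 (SE 0.0951), DVL1 at 0.29 (SE 0.0912), AXIN1 at 0.25 (SE 0.117), FZD2 at 0.23 (SE 0.0911) and GSK3A at 0.23 (SE 0.109). All 6 have exons of over 55% GC, a class that holds 25 of the 55 tested members. The lower ones were AXIN2 at -0.33 (SE 0.131), ZNRF3 at -0.32 (SE 0.129), LGR4 at -0.27 (SE 0.123), LRP6 at -0.26 (SE 0.118) and CTNNB1 at -0.22 (SE 0.101). LGR4, LRP6 and CTNNB1 have under 45% GC, ZNRF3 53.3% and AXIN2 55.6%.

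For all 11 the difference was larger in set A, as it was for 51 of the 55 tested members. The sign was the same in both sets for all 11. The fit that picked them pools both sets, so shared signs are largely fixed by that choice. In set A APEX1-OE replicate 1 had the strongest GC trend of the 3 libraries, and its part in these differences was not tested. NKD2 was higher by 0.67 log2 CPM in set A and 0.27 in set B, and WNT7B by 0.36 and 0.25. DVL1 was higher by 0.34 and 0.23 and FZD2 by 0.26 and 0.20, so that WNT7B, DVL1 and FZD2 kept most of their difference in set B. AXIN1 was higher by 0.39 and 0.10 and GSK3A by 0.33 and 0.12. The lower members were closer to 0 in set B, where ZNRF3 was at -0.03, LGR4 at -0.06, CTNNB1 at -0.05, LRP6 at -0.09 and AXIN2 at -0.17, than in set A, where the same genes were at -0.63, -0.50, -0.41, -0.46 and -0.52. Single libraries stand on one side of each of these differences, which have no test of their own.

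**Figure D4:**
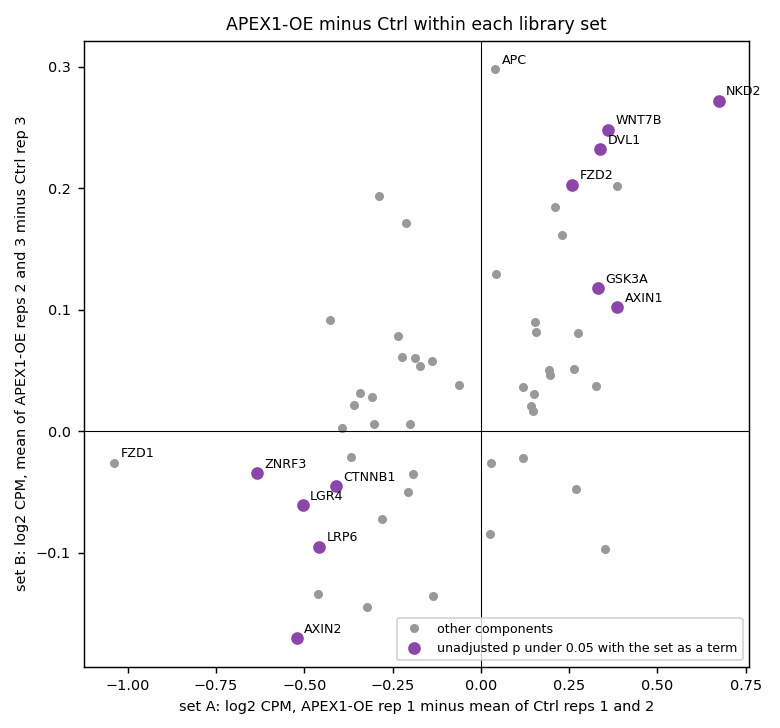
Difference of APEX1-OE minus Ctrl in log2 CPM within set A (horizontal axis, 1 APEX1-OE and 2 Ctrl libraries) and within set B (vertical axis, 2 APEX1-OE libraries and 1 Ctrl library), with 1 point for each of the 55 tested Wnt components and purple for the 11 with an unadjusted p under 0.05 with the set as a term. The axes have different scales. The purple points lie in the upper right and lower left, which a choice by a fit that pools both sets favours. NKD2 is the farthest to the upper right.

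Over all members, 22 were higher in APEX1-OE in both sets, 13 lower in both and 20 of opposite sign, so that 63.6% kept their sign, against 55.4% of all tested genes. The difference was larger in set A for 51 of 55, and the share over all tested genes was not counted. Within set A the 15 members with under 45% GC had a median of -0.30 and 13 of them were lower in APEX1-OE (median of all such genes -0.22), and the 25 with over 55% GC had a median of 0.23 and 22 were higher (all such genes 0.23). Within set B the medians were 0.02 and 0.05 (all such genes 0.06 and 0.08). In each set the members' medians lay within 0.1 log2 of those of all genes of like base composition.

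With an offset per gene and library for GC content and exon length added to the set term, 10 members, 18.2%, had an unadjusted p under 0.05 in edgeR's quasi-likelihood test, against 12.3% of all genes, and again none passed the adjustment (smallest adjusted p 0.225). Of the 10, 8 were shared with the fit without the offset. NKD2 (0.31), WNT7B (0.14) and FZD2 (0.15) were higher with the offset. AXIN2 (-0.40), CTNNB1 (-0.15), LGR4 (-0.19), LRP6 (-0.19) and ZNRF3 (-0.35) were lower. The differences of AXIN2 and ZNRF3 were larger in size with the offset than without it, and those of the other shared members were smaller. DVL1, AXIN1 and GSK3A dropped out, and FZD7 and LRP5 came in. GSK3A crossed the threshold narrowly, at an unadjusted p of 0.0499 without the offset and 0.0511 with it in edgeR's quasi-likelihood test. With the offset 3 members were higher and 7 lower, against 7.6% and 4.71% of all genes.

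The order of paralogs was the same in all 6 libraries, although for several pairs the ratio moved with the library set. Ratios of FPKM within a library do not depend on its scaling. GSK3A exceeded GSK3B by 21.0, 6.56 and 4.93 times in APEX1-OE and by 15.04, 15.2 and 5.46 times in Ctrl. LRP5 exceeded LRP6 by 27.2, 8.32 and 6.76 times in APEX1-OE and by 19.4, 22.0 and 6.85 times in Ctrl. Set A was above set B without overlap in both ratios. The same held for CTBP1 over CTBP2, at 2.53 to 3.81 in set A and 1.57 to 1.90 in set B, and for DVL1 over DVL3, at 4.74 to 5.42 and 3.42 to 3.81. In these 4 pairs the first gene has the higher GC content.

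Another 2 ratios separated the sets the other way. TNKS2 exceeded TNKS, of nearly the same GC content (41.5% and 41.6%), by 1.90 to 2.12 times in set A and 2.32 to 2.49 times in set B, and TLE1 exceeded TLE3 (54.1% and 57.9%) by 4.03 to 4.31 and 4.97 to 5.23 times. The sets overlapped for the remaining 4 ratios. FBXW11 exceeded BTRC by 4.48 to 5.17 times and CSNK1D exceeded CSNK1E by 4.49 to 5.97 times. AXIN1 exceeded AXIN2 by 14.8, 7.89 and 5.13 times in APEX1-OE and by 7.67, 8.005 and 5.26 times in Ctrl, with APEX1-OE replicate 1 apart from the rest. Of 10 ratios compared, the groups were separate for DVL1 over DVL2, which was 2.15, 2.11 and 2.10 in APEX1-OE and 2.03, 2.05 and 1.86 in Ctrl (p = 0.1 by a two-sided exact permutation test, which is the lowest p in reach of 3 libraries against 3, and 1.0 after Benjamini-Hochberg adjustment over the 10 ratios). For the other 9 the exact permutation p was from 0.2 to 1.0.

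**Figure D5:**
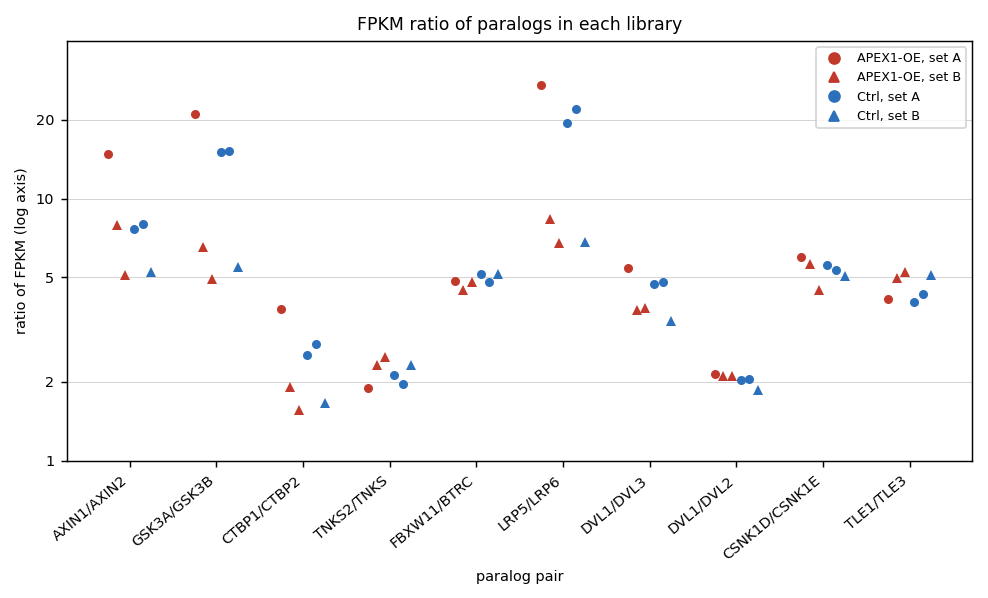
Ratio of the FPKM of paralogous Wnt components (vertical log axis) in each of the 6 libraries for 10 pairs, with red for APEX1-OE, blue for Ctrl, circles for set A and triangles for set B. Circles lie above triangles for GSK3A over GSK3B, LRP5 over LRP6, CTBP1 over CTBP2 and DVL1 over DVL3 and below them for TNKS2 over TNKS and TLE1 over TLE3, and all ratios are above 1.

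None of 77 other Wnt genes that were tested passed either. A list of 101 other Wnt genes (ligands, receptors and surface regulators, intracellular components, planar polarity components and reported targets) had 98 in the count table and 77 that passed the filter. Of these 77, 0 were called and 0 had an unadjusted p under 0.05 in edgeR's quasi-likelihood test, against 0.00589% and 0.695% of all genes. The median log2 fold change was 0.04 and 44 were positive. With the library set as a term 0 were called and 9, or 11.7%, had an unadjusted p under 0.05 (11.6% of all genes), 6 of them higher and 3 lower. Of the other ligands 4 of 13 were tested, with none above 1.1 FPKM in any library. The R-spondin RSPO3, a ligand of LGR4, was at 11.4, 31.0 and 31.1 FPKM in APEX1-OE and 14.5, 15.5 and 29.6 in Ctrl, high in set B like LGR4. The target CCND1 (cyclin D1) was at 69.7, 105 and 107 in APEX1-OE and 67.6, 70.4 and 97.5 in Ctrl, a log2 fold change of 0.24 with an adjusted p of 1.00 in edgeR.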

How the data were processed

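RNA-seq of 6 A549 libraries (3 APEX1-OE, 3 Ctrl) was analysed. The authors trimmed reads with FASTX-Toolkit 0.0.13, dropped those with over 2 N bases or shorter than 16 nt, and mapped them to GRCh38 by tophat2 with up to 4 mismatches. From uniquely mapped reads the authors deposited raw counts per gene and FPKM rounded to 2 decimals. The kit was stranded, but the sources used here do not name the counting tool, the annotation or the use of strand, so reads of overlapping or near-identical genes may be shared.

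Counts were filtered with filterByExpr (at least 10 counts, total of at least 15), scaled by TMM and tested across all genes with the quasi-likelihood F-test (robust) of edgeR 4.0.16 in R 4.3.3, with condition as the only term and Benjamini-Hochberg adjustment at 0.05. Log2 CPM used a prior count of 2. FPKM and their ratios were compared by exact permutation. GC content, exon length and positions came from GENCODE 44 on GRCh38, where all 56 members matched. Alternatives used DESeq2 1.42.0, limma 3.58.1, other scalings and filters, left-out libraries, a replicate block, the library set and an offset from splines with 5 degrees of freedom. The condition-only fit was tested on counts simulated for 16756 genes without library sets. It recovered 82 of 99 genes changed by 1 log2 unit and 98 of 98 changed by 2, with 10 false calls. The simulated spread was the same for every gene and left out the sets, so this recovery does not measure power in the real libraries. There the median SE of the same fit over all genes was 0.299 log2. No 2 libraries agreed within sampling noise (chi-square per degree of freedom of at least 3.63 over all pairs).

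The members, gene lists, library sets and tests were chosen with earlier results of these data known. A rule chose the most abundant member of each role with at least 3 members, members with splicing primers and NKD2. It also chose feedback targets, paralogs, and the 3 largest positive and 3 largest negative differences. The other members are described with their role. WLS, BCL9, RSPO3, CCND1 and the members with an unadjusted p under 0.05 that this rule does not choose were singled out after their values were seen. Splicing, qPCR and protein assays were not analysed here.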

Additional observations from a re-analysis of the deposited data

How the results depend on the processing

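No Wnt component was called under any of the 19 alternatives. Over all genes, 1 gene was called as reported, 10 without a filter on low counts, 2 with the replicate block, 4 with the library set as a term and 20 with the set and the GC and length offset. Leaving out each library in turn gave 0 to 1, and 0 without APEX1-OE replicate 2 or 3 or Ctrl replicate 1 or 2. Members with an unadjusted p under 0.05 numbered 11 with the set and 10 with the set and the offset, 0 to 1 with a library left out (APC without APEX1-OE replicate 1), and 0 in the other alternatives. The members' median log2 fold change was -0.0411 with the set and the offset and ran from -0.0823 (without APEX1-OE replicate 1) to 0.0460 (without APEX1-OE replicate 3) with a library left out, and was -0.0638 without Ctrl replicate 3. Signs were compared for the 36 tested members that the rule above chose, not for every member described. Of these, 9 kept the sign of their uncalled difference under every alternative that could be run for them and 27 changed it under at least 1, in 92 of 675 values. The deviations of same-numbered libraries correlated by 0.61 for replicate 1 and 0.70 for replicate 3, whose libraries lie in the same set, but by -0.52 for replicate 2, so the numbers were not taken to pair the samples, and the replicate block left the members' calls at 0. Limits are the 3 libraries a group, the library sets that cross the groups unevenly, members such as ROR2 and LEF1 with few counts, and gene-level values that sum splice forms.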

Other observations

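Among the 77 other Wnt genes tested, those described here were picked after their values were seen. FOSL1, an AP-1 subunit and reported target of the pathway, was at 36.9, 27.4 and 16.4 FPKM in APEX1-OE and 18.9, 19.3 and 13.3 in Ctrl, a log2 fold change of 0.66 (SE 0.376). The groups overlapped, whereas inside either library set each APEX1-OE library was above each Ctrl library. With the set as a term its log2 fold change was 0.89, with an unadjusted p of 6.65e-05 and an adjusted p of 0.0954 in edgeR's quasi-likelihood test. PLAUR, the urokinase receptor and also a reported target, was at 32.9, 29.6 and 28.4 in APEX1-OE and 28.0, 29.2 and 22.6 in Ctrl, with 0.33 and an adjusted p of 0.350 in the same edgeR fit. Another reported target, MMP7, was lower in that fit, at -0.34 with an adjusted p of 0.406. Its FPKM was 13.1, 24.0 and 34.5 in APEX1-OE and 21.9, 22.1 and 30.6 in Ctrl. ROCK1, a kinase of the planar polarity route, was at 0.68, 1.65 and 1.57 in APEX1-OE and 0.55, 0.53 and 1.20 in Ctrl, with 0.44 and an adjusted p of 0.350 in that edgeR fit. FRAT1, which binds GSK3, was lower, at 1.28, 1.27 and 1.33 in APEX1-OE and 2.12, 2.03 and 1.47 in Ctrl. Its log2 fold change was -0.56 (SE 0.260, unadjusted p = 0.0647 in edgeR's quasi-likelihood test, adjusted p = 1.00), and -0.38 with the set as a term (adjusted p = 0.400).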
